A study of Homo sapiens with 4 samples.

Results

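The 9 genes GCLC, GCLM, TXNRD1, SRXN1, HMOX1, NQO1, PGD, ME1 and OSGIN1 are targets of the transcription factor NRF2 that serve glutathione and thioredoxin chemistry, heme and quinone handling, and the supply of NADPH. They were taken by gene name from the array design and made up 9 of 43310 named genes, with all 9 found. Each gene had 1 probe. HMOX1 was printed at 10 spots on each array and the others at 1 spot, which gave 18 spots in all. Every one of the 9 probes was well above background, by the mark of the scanner software, on all 4 arrays.

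The study transfected 2 established human cancer cell lines, HCT116 (colorectal) and A549 (lung), with the microRNA miR-891b or with NC1, its negative control, using the lipid reagent Dharmafect1. Each line was given each transfection, which makes 4 groups with 1 array of total RNA in each, so that no group has a replicate. HCT116 was grown in McCoy's 5A medium and A549 in DMEM. The dose of the microRNA and the time after transfection are not given in the sources used here. Both arrays of a line lay on 1 slide in 1 scan, so line, medium, slide and scan cannot be told apart.

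NRF2 is a stress-responsive activator that is bound in the cytoplasm by KEAP1, an adaptor that hands it to a ubiquitin ligase for destruction. When electrophiles or oxidants modify KEAP1, or when KEAP1 is lost by mutation, NRF2 enters the nucleus, pairs with a small MAF protein and binds the antioxidant response element of its target genes. A549 is widely used as a line with a KEAP1 mutation and constant NRF2 activity, and its targets rebuild reduced glutathione and thioredoxin with electrons carried by NADPH.

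The transfected microRNA is shown because every transfection contrast rests on it. The mature sequence, from RefSeq (GRCh38.p14, chrX:146001100-146001121, minus strand), is given 5′ to 3′ with the seed, bases 2 to 8, in capitals.
miR-891b: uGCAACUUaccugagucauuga
A perfect DNA match to the seed, AAGTTGC, was in 0 of the 9 members' probes and in 229 of all 58201 gene probes (0.393%), each 60 bases long. The probes cover only a short stretch of each transcript, and seed matches elsewhere in the transcripts were not searched.

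Levels are log2 processed signals relative to the 75th percentile of gene probes on the same array, a scale on which values of 1 gene can be compared between arrays but values of different probes cannot. The processed signal at that percentile was 54.9 to 74.8 units, and 44.7% to 50.3% of probes were well above background per array. No gene spot was saturated. The error that the scanner software gives came to 0.14 to 0.15 for a level of these genes and 0.20 to 0.21 for a difference, and probes printed several times had a median SD between spots of 0.061 to 0.071 for a difference. Both describe measurement on the array and not the spread between cultures. Over all genes the 25th and 75th percentiles of the change after miR-891b were -0.24 and 0.16 in HCT116 and -0.38 and 0.25 in A549. Going beyond the scanner error was thus common. On the HCT116 miR-891b array 10.5% of spots lay in areas where otherwise dim neighbours were bright, against 0.021% to 2.20% on the other arrays. The spots of SRXN1 and PGD and 1 of the 10 HMOX1 spots on that array were in such areas. The part of this in the values of SRXN1 and PGD, which have no other spot, was not tested, and the HMOX1 changes were also computed without that spot. Of 8 colon epithelium markers 4 were well above background in HCT116 (CDX1, CDX2, EPCAM, KRT20; VIL1 and CDH17 were not) and 7 in A549, with summed processed signals of 6380 to 6788 and 1033 to 1227. Of 7 lung epithelium markers 5 were in HCT116 and 3 to 4 in A549, with sums of 144 to 181 and 379 to 793, and the lineage factor NKX2-1 was not well above background in A549. Fibroblast markers were so for 2 of 6 in HCT116 and 3 of 6 in A549 (sums 123 to 144 and 292 to 769). Leukocyte markers were so for 3 of 4 in HCT116 and 2 of 4 in A549 (sums 35.4 to 35.6 and 168 to 229). PSAT1, the serine synthesis enzyme named in the title of the series, was lower after miR-891b by a log2 change of -0.81 in HCT116 and -1.58 in A549.

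In cells given NC1, 8 of the 9 genes were at least 2-fold higher in A549 than in HCT116 and 0 were 2-fold lower. Of the 19218 genes measured in both, 11.1% were higher in A549 by that factor and 16.2% lower. The median difference of the 9 genes was a log2 value of 1.41, against -0.10 for all genes. The largest were those of NQO1 (5.15-fold), PGD (3.66-fold) and HMOX1 (3.28-fold), and ME1 was the exception at 1.05-fold. The genes were chosen with earlier results of these arrays known, so the count is a description. The plot of levels by array shows the pattern gene by gene.

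**Figure D1:**
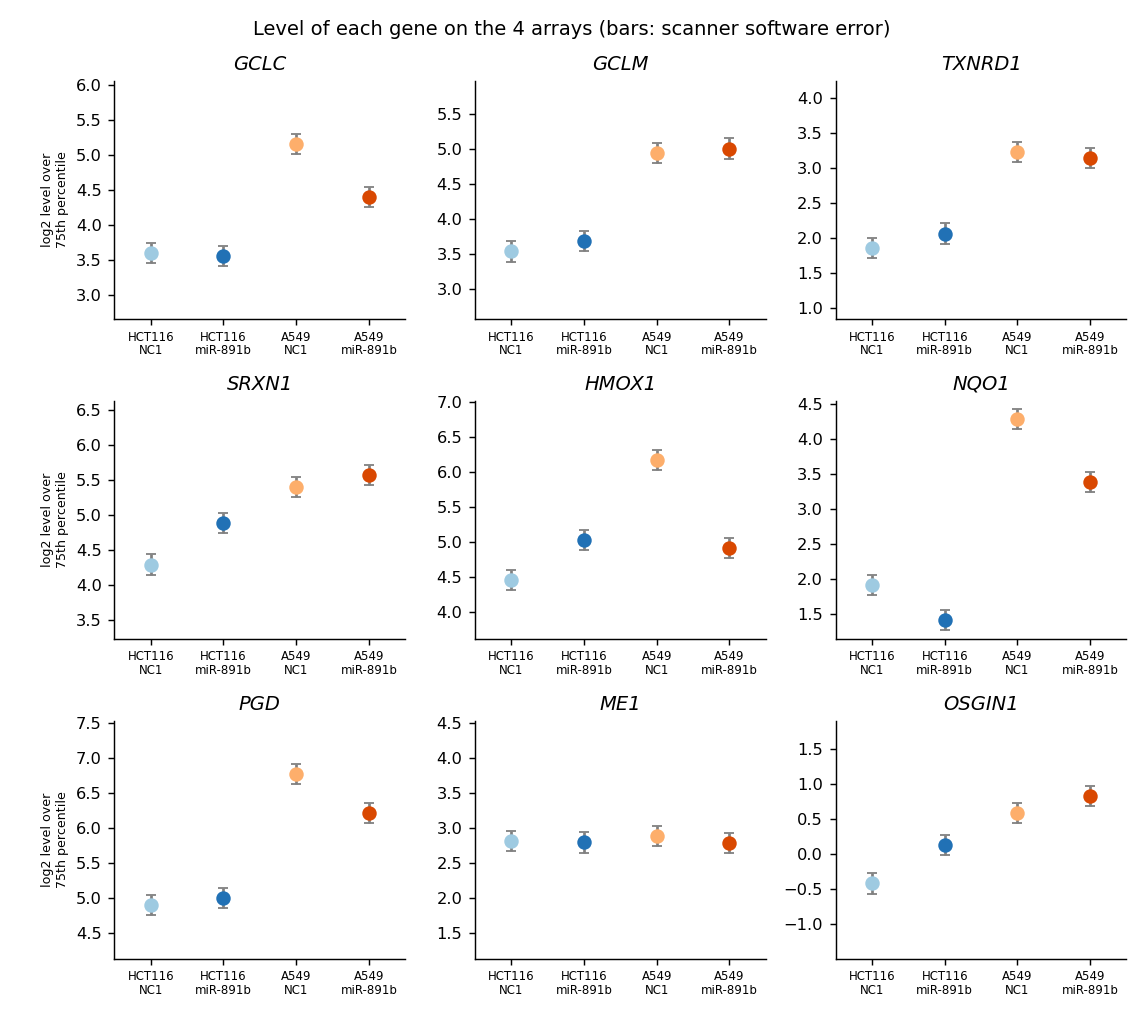
Log2 level over the array's 75th percentile (vertical axis, 1 panel per gene, all panels spanning the same range) on the HCT116 and A549 arrays with NC1 or miR-891b. Points are single arrays and bars the error given by the scanner software; both A549 points lie above both HCT116 points for 7 genes, HMOX1 is highest in A549 NC1 and lowest in HCT116 NC1 with its miR-891b points between, and the ME1 points lie between 2.78 and 2.88.

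GCLC and GCLM encode the catalytic and the modifier subunit of glutamate-cysteine ligase, which makes the first bond of glutathione. GCLC (probe at hg19 chr6:53362197-53362256) had log2 levels of 3.61 in HCT116 with NC1, 3.57 in HCT116 with miR-891b, 5.16 in A549 with NC1 and 4.41 in A549 with miR-891b. Both A549 arrays stood above both HCT116 arrays, the HCT116 pair differed by less than the scanner error, and the A549 pair by more. GCLM (chr1:94352810-94352869) had levels of 3.54 and 3.68 in HCT116 (NC1, then miR-891b) and of 4.95 and 5.01 in A549. Its 2 arrays within each line differed by less than the scanner error, and the lines did not overlap. On the NC1 arrays GCLC was 2.93-fold and GCLM 2.66-fold higher in A549, at the 94.7th and 93.8th percentile of all genes.

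TXNRD1 encodes the cytosolic thioredoxin reductase, which passes electrons from NADPH to thioredoxin, and SRXN1 encodes sulfiredoxin, which repairs over-oxidised peroxiredoxins. TXNRD1 (chr12:104732949-104733008) had levels of 1.85 and 2.06 in HCT116 (NC1, then miR-891b) and of 3.22 and 3.14 in A549. The lines did not overlap, and the A549 pair differed by less than the scanner error while the HCT116 pair sat at about that error. SRXN1 (chr20:627563-627622) had levels of 4.30 and 4.89 in HCT116 and of 5.41 and 5.58 in A549. HCT116 NC1 was lowest, HCT116 miR-891b lay between the lines, and the A549 pair differed by less than the scanner error. On the NC1 arrays TXNRD1 was 2.59-fold and SRXN1 2.15-fold higher in A549.

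HMOX1 encodes heme oxygenase 1, which opens heme to biliverdin, iron and carbon monoxide, and NQO1 encodes the quinone reductase that is often used as a readout of NRF2. HMOX1 (chr22:35790122-35790181) had log2 levels of 4.46 ± 0.053 with NC1 and 5.02 ± 0.048 with miR-891b in HCT116, and of 6.17 ± 0.048 and 4.91 ± 0.043 in A549 (SD, n = 10 spots of 1 array each). The processed signals behind them were 1204 and 1855 in HCT116 and 5383 and 2234 in A549. A549 NC1 was highest and HCT116 NC1 lowest, and the miR-891b arrays of the lines met in between. NQO1 (chr16:69744274-69744333) had levels of 1.92 and 1.42 in HCT116 (NC1, then miR-891b) and of 4.29 and 3.39 in A549, from processed signals of 208, 152, 1460 and 779. Its A549 levels were above its HCT116 levels by a wide margin, miR-891b was the lower array in each line, and all neighbours in the order differed by more than the scanner error.

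PGD encodes 6-phosphogluconate dehydrogenase and ME1 cytosolic malic enzyme, which both make NADPH, and OSGIN1 encodes a stress-induced growth inhibitor. PGD (chr1:10478911-10478970) had levels of 4.90 and 4.99 in HCT116 (NC1, then miR-891b) and of 6.77 and 6.21 in A549, with A549 above HCT116 on both pairs and the HCT116 arrays within the scanner error of each other. ME1 (chr6:83920796-83920855) had levels of 2.80 and 2.79 in HCT116 and of 2.88 and 2.78 in A549, all 4 within the scanner error. OSGIN1 (chr16:83999149-83999208) was the nearest to background, with levels of -0.42 and 0.13 in HCT116 and of 0.59 and 0.83 in A549. Its order ran from HCT116 NC1 up to A549 miR-891b with each neighbour beyond the scanner error, and its 2.01-fold difference on the NC1 arrays lay just past the 2-fold limit.

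On the miR-891b arrays 4 of the 9 genes were at least 2-fold higher in A549 (GCLM 2.51-fold, TXNRD1 2.12-fold, NQO1 3.93-fold, PGD 2.32-fold), against 11.4% of 18576 genes, and 0 were 2-fold lower, against 20.7%. Their median log2 difference there was 0.84, against -0.19 for all genes. GCLC was 1.79-fold, SRXN1 1.61-fold and OSGIN1 1.63-fold higher in A549, and ME1 was level at -0.01 on the log2 scale. HMOX1 had a log2 difference of -0.11 ± 0.069 (SD, n = 10 spots) with single spots from -0.18 to 0.07, where its NC1 difference was 1.71 ± 0.053. The 2 comparisons share no array, but they use the same slides. For each gene the miR-891b value minus the NC1 value equals the change in A549 minus that in HCT116, given below, so these are not separate observations.

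**Figure D2:**
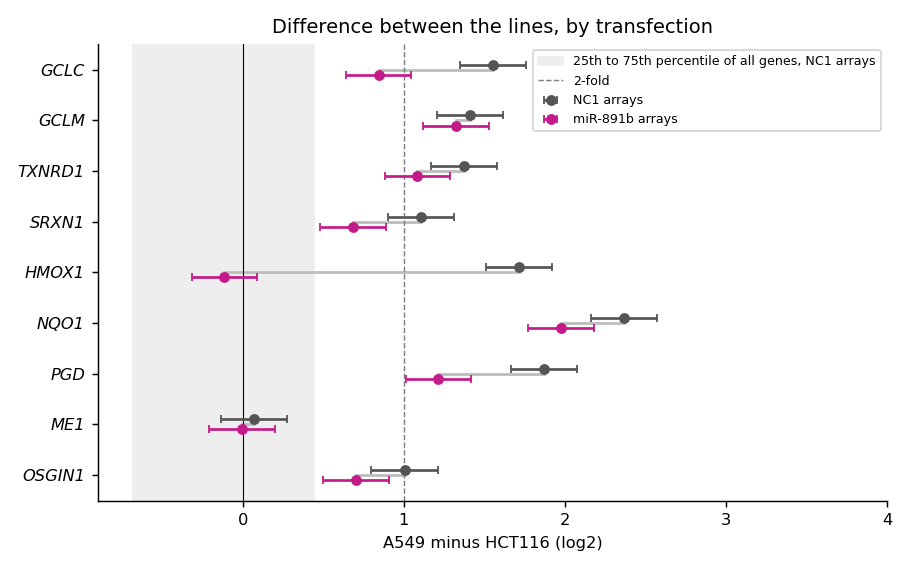
Log2 difference between A549 and HCT116 (horizontal axis) for each gene on the NC1 arrays (grey points) and on the miR-891b arrays (magenta points), with bars for the error given by the scanner software, a grey band from the 25th to the 75th percentile of all genes and a dashed line at 2-fold. On the NC1 arrays 8 genes lie at or past the dashed line and on the miR-891b arrays 4, and HMOX1 spans from 1.71 to -0.11.

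The line term was then estimated with limma in an additive fit of line and transfection to all 4 arrays. It treats the arrays with NC1 and miR-891b of a line as its pair and leaves 1 residual degree of freedom. A difference in response between the lines thus counts as error, and the fit holds no spread between repeat arrays or cultures. The genes were chosen with earlier results of these arrays known, so the p-values below describe them and are not an independent test. In this fit 5 of the 9 genes were higher in A549 at an adjusted p under 0.05, against 15.5% of 22712 genes higher and 16.4% lower. NQO1 differed by 2.17 on the log2 scale (SE 0.25, limma adjusted p = 0.0073). GCLM differed by 1.37 (SE 0.23, limma adjusted p = 0.019) and PGD by 1.54 (SE 0.28, limma adjusted p = 0.023). TXNRD1 differed by 1.23 (SE 0.24, limma adjusted p = 0.027). GCLC differed by 1.20 (SE 0.29, limma adjusted p = 0.044), and with the authors' own log2 values its adjusted p was 0.053. SRXN1 at 0.89 (SE 0.25) and OSGIN1 at 0.85 (SE 0.24) both missed the threshold with limma adjusted p = 0.063. HMOX1, whose transfection contrasts had opposite signs in the lines, had the widest error of the 9 (0.80, SE 0.50, limma adjusted p = 0.28). ME1 differed by 0.03 (SE 0.23, limma adjusted p = 0.92). The fit takes the slide up together with the line.

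The antioxidant response element is the sequence by which NRF2 targets are known. Its core was searched as TGACNNNGC on both strands in the 250 bases before each transcription start of the RefSeq promoter table (GRCh38.p14). Of the 9 genes 8 were in the table, and HMOX1 was not used here. The core was present for 4 of the 8 (GCLM, TXNRD1, PGD and ME1), against 13.2% of 27305 genes and 10.9% of 35116 promoters of this length. The GCLM, second TXNRD1 and ME1 windows are printed because they hold the core in genes that differed between the lines (GCLM, TXNRD1) and in the one that did not pass 2-fold (ME1). Each is 5′ to 3′ on the strand of the gene with the match in capitals, GCLM from chr1:93909431-93909680 (minus strand), TXNRD1 from chr12:104286782-104287031 (plus strand) and ME1 from chr6:83431052-83431301 (minus strand).
GCLM: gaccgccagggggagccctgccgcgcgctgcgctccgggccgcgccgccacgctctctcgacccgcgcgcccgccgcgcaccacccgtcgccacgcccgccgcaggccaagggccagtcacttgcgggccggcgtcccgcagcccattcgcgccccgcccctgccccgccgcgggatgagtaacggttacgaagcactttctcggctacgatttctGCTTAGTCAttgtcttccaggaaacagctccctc
TXNRD1: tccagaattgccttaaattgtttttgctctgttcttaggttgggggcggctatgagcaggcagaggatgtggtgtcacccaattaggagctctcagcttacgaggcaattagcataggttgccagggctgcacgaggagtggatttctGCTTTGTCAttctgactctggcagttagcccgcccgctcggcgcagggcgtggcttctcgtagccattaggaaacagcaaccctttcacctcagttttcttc
ME1: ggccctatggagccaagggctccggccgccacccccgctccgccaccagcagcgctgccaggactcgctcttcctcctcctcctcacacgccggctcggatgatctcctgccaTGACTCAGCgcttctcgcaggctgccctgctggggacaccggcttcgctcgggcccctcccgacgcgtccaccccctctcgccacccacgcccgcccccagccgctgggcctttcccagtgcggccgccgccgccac
The GCLM match read TGACTAAGC on the opposite strand and ended 25 bases before the start. The TXNRD1 window shown held TGACAAAGC on the opposite strand, 93 bases before the start, and the window of its other start held TGACTTCGC on the strand of the gene, 90 bases before it. The ME1 match read TGACTCAGC on the strand of the gene, 128 bases before the start, and its first letters are also those of an AP-1 site, TGACTCA. PGD held TGACATTGC on the opposite strand, 192 bases before its start. Among genes of the promoter table measured on both NC1 arrays, those with the core were at least 2-fold higher in A549 in 10.9% of 1636 cases. Those without were so in 11.0% of 8708. A match describes letters and not a bound site, and no match says only that these letters are not in this window.

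After miR-891b none of the 9 genes reached 2-fold in HCT116, where 1.16% of 19105 genes were at least 2-fold higher and 0.843% lower. In A549 only HMOX1 did, being 2.39-fold lower, where 5.57% of 21336 genes were at least 2-fold lower and 4.01% higher. The median log2 change of the 9 genes was 0.14 in HCT116 (all genes -0.04) and -0.09 in A549 (all genes -0.06). With 1 array per group these contrasts have no replicate and no p.

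HMOX1 was the gene with the widest contrast between the lines. Its log2 change after miR-891b was 0.57 ± 0.043 in HCT116 (SD, n = 10 spots), with every spot between 0.51 and 0.64. In A549 it was -1.26 ± 0.065, with every spot between -1.32 and -1.09. The spots of the array pairs did not overlap in either line, and the change in A549 minus that in HCT116 was -1.83 ± 0.072 over spots. Without the 1 spot in a disturbed area the changes were 0.57 and -1.26. The A549 change was -1.01 with quantile normalization and -0.98 with normexp background correction and quantile normalization, and the latter lies short of 2-fold. The plot of HMOX1 spots shows how tightly each array measured it.

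**Figure D3:**
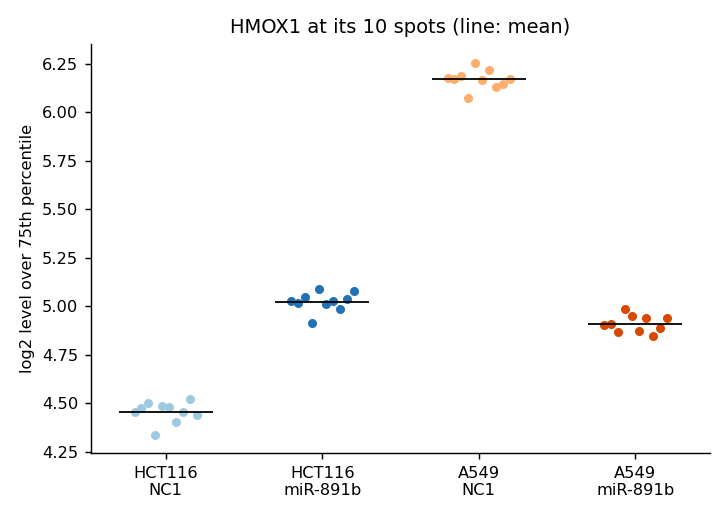
Log2 level of HMOX1 over the array's 75th percentile (vertical axis) at each of its 10 spots on the HCT116 and A549 arrays with NC1 or miR-891b, with lines at the means. The means are 4.46, 5.02, 6.17 and 4.91, and the spots of the miR-891b arrays lie between those of HCT116 NC1 and A549 NC1.

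NQO1 was the lower array after miR-891b in both lines, with a log2 change of -0.51 in HCT116 (7.81th percentile of all genes) and -0.90 in A549 (7.04th percentile). Over all genes the 25th percentile of the change was -0.24 in HCT116 and -0.38 in A549, so many genes were lower by more than the scanner error. NQO1 was the only one of the 9 genes that was lower in both lines by more than that error. In the limma fit its transfection term was -0.70 (SE 0.25, unadjusted p = 0.046, limma adjusted p = 0.79), so it did not pass after adjustment. Its HCT116 change was -0.33 with normexp and quantile normalization. Its A549 change was -0.76 with quantile normalization and -0.69 with normexp and quantile normalization.

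GCLC had a log2 change of -0.75 in A549 (10.2th percentile) and -0.04 in HCT116. PGD had -0.56 in A549 and 0.10 in HCT116. For both genes the A549 contrast was beyond the scanner error and the HCT116 contrast within it. The A549 change of PGD was -0.26 with quantile normalization and -0.25 with normexp and quantile normalization, nearer to that error. That of GCLC was -0.53 and -0.52 in these settings. The PGD spot on the HCT116 miR-891b array lay in a disturbed area.

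SRXN1 and OSGIN1 were higher after miR-891b in both lines. The log2 change of SRXN1 was 0.59 in HCT116 (96.2th percentile) and 0.17 in A549. That of OSGIN1 was 0.54 in HCT116 (95.4th percentile) and 0.24 in A549. In HCT116 these changes were of the size of that of HMOX1, and in A549 that of SRXN1 was within the scanner error. It was 0.42 with quantile normalization and 0.45 with normexp and quantile normalization, beyond that error. The HCT116 change of OSGIN1 was 0.31 with normexp and quantile normalization. The SRXN1 spot on the HCT116 miR-891b array also lay in a disturbed area, and the OSGIN1 spots did not.

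GCLM had log2 changes of 0.14 in HCT116 and 0.06 in A549, TXNRD1 of 0.21 and -0.08, and ME1 of -0.02 and -0.09. Apart from TXNRD1 in HCT116, which sat at the scanner error, none of these 6 contrasts went beyond it in the main setting. The A549 change of GCLM was 0.32 with quantile normalization, with or without normexp, which is beyond it. The subunits of glutamate-cysteine ligase thus had different A549 values, -0.75 for GCLC and 0.06 for GCLM.

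**Figure D4:**
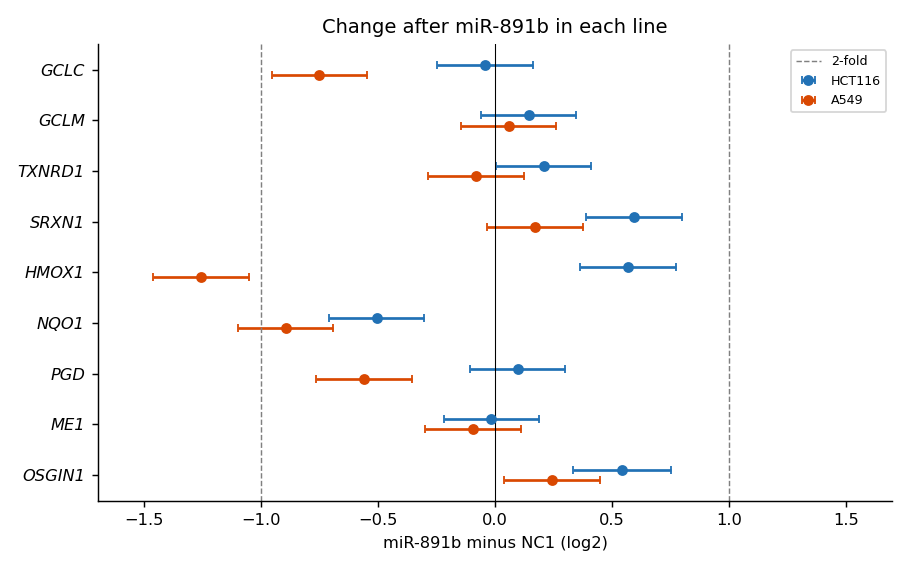
Log2 change with miR-891b against NC1 (horizontal axis) for each gene in HCT116 (blue points) and A549 (orange points), with bars for the error given by the scanner software and dashed lines at 2-fold. HMOX1 in A549, at -1.26, is the only point past a dashed line, and for all 9 genes the A549 point lies left of the HCT116 point.

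The change was lower in A549 than in HCT116 for 9 of the 9 genes, by a median of -0.39 on the log2 scale. Over the 18064 genes that all 4 arrays measured well above background it was lower in 54.3%, with a median of -0.05, and over the 1971 of these that were at least 2-fold higher in A549 with NC1 it was lower in 63.2%, with a median of -0.19. The differences ran from -1.83 for HMOX1, -0.71 for GCLC and -0.66 for PGD to -0.09 for GCLM and -0.08 for ME1. With quantile normalization 8 of 9 were lower and GCLM was higher by 0.15, and with normexp and quantile normalization GCLM was higher by 0.12. The other differences shrank in these 2 settings, to -0.40 and -0.41 for PGD, -0.21 and -0.18 for SRXN1, and -0.24 and -0.10 for OSGIN1. The shares of all genes above are those of the main setting. The scanner error of such a difference was not computed, and the main values of GCLM and ME1 were below that of a single change. The contrasts of each line come from 1 array pair, so with 1 array per group there is no residual spread to test their difference against.

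In the limma fit 0 of the 9 genes and 0% of 22712 genes passed an adjusted p under 0.05 for the transfection term. Before adjustment 1214 genes (5.35%) had p under 0.05, NQO1 among them. The limma adjusted p of the 9 genes ran from 0.79 to 0.97.

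The regulators of NRF2 differed in both directions between the lines. NFE2L2, which encodes NRF2 itself, had 1 probe that was not well above background on any of the 4 arrays. Its spot on the A549 miR-891b array lay in a disturbed area (28.5% of nearby dim spots bright). With 1 probe, an absent transcript cannot be told from a probe that fails. KEAP1, the inhibitor of NRF2, had log2 levels of 3.47 and 3.57 in HCT116 (NC1, then miR-891b) and of 2.89 and 3.10 in A549. It was lower in A549 by a log2 difference of -0.58 on the NC1 arrays, which was not called (line term -0.53, SE 0.23, limma adjusted p = 0.16). Of 10 measured regulators 2 were at least 2-fold higher in A549 with NC1 and 1 lower, against 11.1% and 16.2% of all genes. Their median was -0.29. SQSTM1, which encodes the KEAP1-binding autophagy receptor p62, differed by 1.11 on the NC1 arrays (line term 1.29, limma adjusted p = 0.026), and after miR-891b its log2 change was 0.83 in HCT116 and 1.19 in A549. The spots of KEAP1 and SQSTM1 on the HCT116 miR-891b array lay in disturbed areas (14.1% and 10.8% of nearby dim spots bright), and the part of this in their values was not tested. Among the small MAF partners, MAFF differed by -2.02 on the NC1 arrays (line term -2.20, limma adjusted p = 0.0068) and MAFK by 1.07 (line term 0.73, limma adjusted p = 0.12). CUL3, the scaffold of the KEAP1 ligase, was past 2-fold only on the miR-891b arrays, at -1.07. In the limma fit 1 regulator was higher and 1 lower in A549, against 15.5% and 16.4% of all genes.

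Among other pentose phosphate and NADPH enzymes 9 of 12 were measured in both lines with NC1, with a median of 0.22. Of these 0 passed 2-fold higher in A549 and 1 lower, against 11.1% and 16.2% of all genes. RPIA, which isomerises ribose phosphate, differed by -1.95 on the NC1 arrays (line term -1.92, limma adjusted p = 0.0083). ME3, a mitochondrial malic enzyme, was at least 103-fold higher in A549 and NNT, the mitochondrial transhydrogenase, at least 15.4-fold, as neither was well above background in HCT116. Such a bound sets the bright array against the dim one, taken at the lowest signal among probes well above background there or at the signal of the probe, whichever is higher. IDH2, a mitochondrial NADPH source, differed by 1.07 only on the miR-891b arrays, and RPE had a log2 change of -1.13 after miR-891b in A549, past 2-fold, with its HCT116 NC1 spot in a disturbed area. ALDH1L1 was well above background only in A549 with miR-891b, at least 1.90-fold above A549 with NC1. The limma fit called 2 of 11 higher and 1 lower in A549, against 15.5% and 16.4% of all genes. The higher ones were ME3 and NNT.

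Of the glutathione and thioredoxin partners 13 of 15 were measured in both lines with NC1, of which 1 passed 2-fold higher in A549 and 0 lower, against 11.1% and 16.2% of all genes, with a median of -0.01. The 13 leave out TXNIP and PRDX2, each dim in 1 line. TXNRD2, the mitochondrial thioredoxin reductase, was counted by its brighter probe, at -0.14. Its other measured probe differed by -1.42, past 2-fold lower. SLC7A11, the cystine importer that feeds GCLC and GCLM, had levels of 3.59 and 3.18 in HCT116 (NC1, then miR-891b) and of 5.30 and 4.90 in A549, and was the one higher (line term 1.72, SE 0.23, limma adjusted p = 0.011). TXN2, the mitochondrial thioredoxin, was just short of 2-fold lower with NC1 and past it with miR-891b at -1.11 (line term -1.05, limma adjusted p = 0.036). TXNIP, the thioredoxin inhibitor, was at least 14.7-fold higher in A549. PRDX2, a peroxiredoxin, was at least 201-fold higher in HCT116, as it was not well above background in A549. The limma fit called 2 of 15 higher and 2 lower in A549, against 15.5% and 16.4% of all genes.

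Of the heme, iron and quinone partners 4 of 9 measured genes were at least 2-fold higher in A549 with NC1 and 0 lower. Of all genes 11.1% were higher and 16.2% lower. The median of the 9 was 0.57. FTL, the ferritin light chain that stores iron, differed by 2.39 to 2.65 over its 3 probes on the NC1 arrays (line term 2.33, limma adjusted p = 0.0051), and its many pseudogene copies could share the signal. BLVRA and BLVRB, the biliverdin reductases that act after heme oxygenase, differed by 1.02 (line term 0.96, limma adjusted p = 0.044) and 1.31 (line term 1.22, limma adjusted p = 0.026). CBR3, a carbonyl reductase, differed by 1.61 (line term 1.46, limma adjusted p = 0.019). CBR1, a quinone-reducing carbonyl reductase, was at least 361-fold and SLC40A1, the iron exporter, at least 77.8-fold higher in A549, both not well above background in HCT116. HMOX2, the constitutive heme oxygenase, differed by -0.98 (line term -0.90, limma adjusted p = 0.052), the opposite side from HMOX1 on the NC1 arrays. The limma fit called 6 of 11 higher and 0 lower, against 15.5% and 16.4% of all genes.

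**Figure D5:**
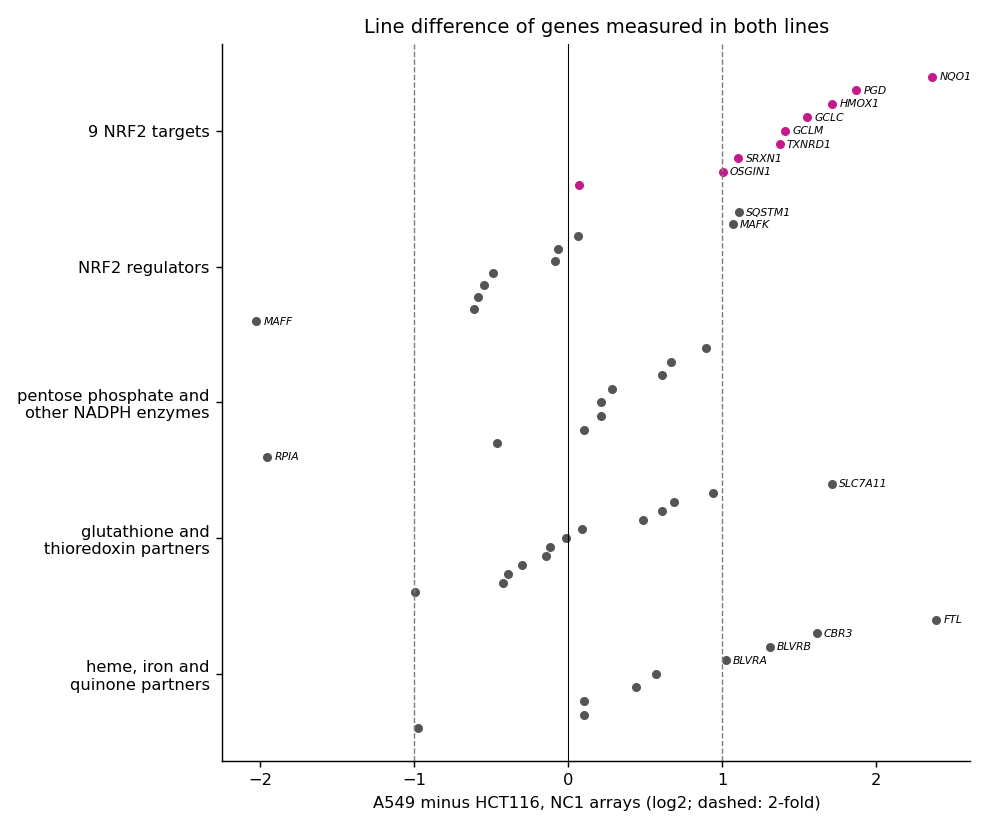
Log2 difference between A549 and HCT116 on the NC1 arrays (horizontal axis) for the 9 NRF2 targets (magenta points) and 4 lists of related genes (grey points), 1 point per gene measured in both lines, with names at 2-fold or more. The unnamed magenta point is ME1. Past the right dashed line lie 8 of 9 targets, 2 of 10 regulators and 0 of 9 NADPH enzymes. So do 1 of 13 glutathione and thioredoxin partners and 4 of 9 heme, iron and quinone partners. Of all genes 11.1% were at least 2-fold higher in A549.

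After miR-891b 0 genes of the 4 related lists reached 2-fold in HCT116, where 1.16% of all genes were higher and 0.843% lower. In A549, among genes measured on both arrays, SQSTM1 was past 2-fold higher and RPE past 2-fold lower, where 4.01% and 5.57% of all genes were. The list medians in A549 were -0.03 for regulators, -0.26 for NADPH enzymes, -0.33 for glutathione and thioredoxin partners and -0.03 for heme, iron and quinone partners, against -0.06 for all genes. In the limma fit 0 genes of the 4 lists passed for the transfection term. The lists were chosen with earlier results of these arrays known. They were grouped by function and not screened for other NRF2 targets, so they do not set targets against genes that are not targets.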

How the data were processed

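Per the labels, 100 ng of total RNA per sample was labelled with Cy3 and hybridised to 1-colour Agilent arrays, 1 array per group. Feature Extraction 11.5.1.1 read the scans, per the file headers, which place the probes on hg19. Its deposited intensity values are background-subtracted and not scaled between arrays. The authors also deposited a value table on a log2 scale, and how it was made is not given in the sources used here. Its values equalled the main setting to a median of 0.0069 or less per array, so scale, centring and direction are those used here.

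Here, outlier spots were left out, log2 processed signals were averaged over spots of a probe, and each array's 75th percentile over gene probes was subtracted. A gene was taken by its probe with the highest mean. A comparison used the genes whose probe both of its arrays marked as well above background. With no replicates, a difference was called at 2-fold, with no p. The additive fit used limma 3.58.1 in R 4.3.3 on genes well above background on at least 2 of 4 arrays, with Benjamini-Hochberg adjustment over all 22712. It had no samples imputed or dropped. Its residual is the difference between the lines' changes after miR-891b, moderated over all genes with 3.18 prior degrees of freedom. It thus holds no spread between repeat arrays or cultures. The labels do not say whether the cultures were independent.

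The members and lists were chosen with earlier results of these data known. All 9 members are named, with list genes past 2-fold in any comparison, NFE2L2 and KEAP1, and the 3 genes outside the lists with the nearest profile. An item that this rule selects is not reported here and was left out of its list. HMOX2, TXNRD2, CDX1, CDX2, EPCAM, KRT20, VIL1, CDH17, NKX2-1 and PSAT1 were named outside that rule, HMOX2 and TXNRD2 after their values were seen. Areas of stray signal were defined per spot and array: of the spots within 10 rows and columns that the remaining 3 arrays showed as dim, at least 10% were marked well above background. Alternatives were normexp with quantile normalization, quantile normalization, median scaling, the authors' values, the mean over probes, no filter on dim probes, other fold limits, leaving out stray areas, and, added after seeing the data, HMOX1 spots outside those areas. The position of probes in exons or untranslated regions was not analysed here.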

Additional observations from a re-analysis of the deposited data

Results flagged for a closer look

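HMOX1, TXNRD1 and PGD had changes of opposite sign after miR-891b in the lines. The change in A549 minus that in HCT116 was -1.83 for HMOX1, -0.66 for PGD and -0.29 for TXNRD1 on the log2 scale. For TXNRD1 the A549 change of -0.08 was within the scanner error and was 0.03 with normexp and quantile normalization and 0.04 with quantile normalization, so the signs were not opposite there. For PGD the HCT116 change of 0.10 was within the scanner error, and its spot on the HCT116 miR-891b array lay in a disturbed area. These differences were not tested, since each group has 1 array.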

How the results depend on the processing

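The count of genes at least 2-fold higher in A549 with NC1 (8 of 9) was 5 of the 6 that remained without areas of stray signal, 4 on the miR-891b arrays and 3 at a 3-fold limit. Of all genes 11.2% were higher by 2-fold without those areas and 11.4% on the miR-891b arrays. In HCT116 the count higher after miR-891b (0) was 1 at a 1.5-fold limit. In A549 the count lower (1) was 0 with normexp and quantile normalization, 0 at a 3-fold limit, 3 at a 1.5-fold limit, and 0 without areas of stray signal, where the HMOX1 probe itself was left out. Of all genes 1.95% were at least 2-fold lower in A549 with normexp and quantile normalization and 5.53% without stray areas. The shares of all genes at the 1.5-fold and 3-fold limits were not computed. For the transfection term of the limma fit, the count lower (0) was 1 at an unadjusted p under 0.05. The line difference of HMOX1 changed sign on the miR-891b arrays, where at -0.11 it was within the scanner error. The line term of SRXN1 passed with normexp and quantile normalization, quantile normalization and median scaling, and that of OSGIN1 with the first and the last of these. OSGIN1 differed by 0.57 with normexp and quantile normalization and 0.95 with quantile normalization on the NC1 arrays, both short of 2-fold. The cause was not tested. The other 86 alternative counts stayed within 1.5 times the main count, many of them at 0 in both settings. Of the single-gene values 256 moved by less than the spread between spots or, in the limma fit, kept their side of the threshold, and 49 moved more. Part of this was fixed in advance. Each gene has 1 probe, well above background on all 4 arrays. The mean over probes and the unfiltered setting thus could not move its log2 values. Leaving out stray areas did not move those of the genes that remained, and the authors' values nearly equal the main setting. In 9 cases a single-gene value changed sign, 1 of them a called value, HMOX1 above, and the rest small values of GCLC, TXNRD1 and ME1. The count called by the limma line term (5) ran from 4 to 7, and the share of all genes called is given for the main setting only. In HCT116 the share of called genes that were higher was 57.9%, 71.1% with normexp and quantile normalization and 49.3% without stray areas, and keeping dim probes moved the median of all genes by 0.24 there and by -0.30 between the lines. OSGIN1, the dimmest of the 9 genes, has the least signal over background.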

Other observations

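Profiles of the 18064 genes that every array marked as well above background were compared, with each gene centred on its mean over the arrays. Members, list genes, cell type markers and symbols not current in RefSeq were set aside. Of the rest, the profiles nearest to the median profile of the 9 genes were those of NICN1, TAX1BP3 and PARP14. Their Euclidean distances over the 4 arrays were 0.048, 0.076 and 0.076 on the log2 scale. TXNRD1 was the member nearest to that profile (0.041), and NQO1 (1.22) and ME1 (1.19) were the farthest.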
